A study of Mus musculus with 16 samples.

Results

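The genes described here are 10 genes of sarcoplasmic reticulum calcium handling, chosen by name: the pumps Atp2a1 and Atp2a2, their small regulators Sln and Pln, the voltage sensor genes Cacna1s and Stac3, the junction gene Jph1, the release channel Ryr1, and the storage genes Casq1 and Casq2. All 10 were found among the 14538 gene symbols of the table, and all 10 reached the minimum mean of 10 normalized counts that left 11841 genes for testing. They were measured by RNA-seq in tibialis anterior, a mostly fast-twitch hindlimb muscle, in wild-type mice, labelled C57BL/6 and C57BL/6J by the study's methods, that were treated with vehicle (5 mice), treated with GDF15 (6 mice) or pair-fed (5 mice, numbered 2 to 6), with 1 library for each mouse. All 3 groups shared the obesogenic NASH diet and warm housing at 29 °C from 8 weeks of age, single housing during treatment and, by the study's methods, male sex. Recombinant GDF15 was injected under the skin once a day in the morning. The protocol names several doses and does not say which these mice received, and neither the age at collection nor the hour of collection is given in the sources used here. The food of pair-fed mice was limited to the intake of the GDF15 group, so that comparing GDF15 with pair-fed mice asks for differences at matched intake, while comparing either group with vehicle does not match intake.

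Each twitch of a muscle fibre begins at the triad, where a voltage sensor in the T-tubule membrane opens ryanodine receptors in the facing reticulum and calcium leaves its calsequestrin-bound store. Sarco/endoplasmic reticulum calcium ATPases (SERCA) then pump the calcium back at the cost of ATP, and small membrane peptides, among them sarcolipin and phospholamban, bind the pump and lower its affinity or its coupling. When sarcolipin is bound, ATP is split with less calcium moved, which releases heat, and this is why these genes are of interest in a study of energy expenditure.

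Libraries held about 9502499 to 15056313 reads, estimated from the size of the step that 1 read makes in the values. A normalized count is the number of reads of a gene scaled for the depth of its library. All 6 markers of skeletal muscle fibres and all 7 of fast fibres were present in every library, as the label tibialis anterior asks. In 3 libraries some slow-fibre markers were high: Myh7, the slow myosin heavy chain, had 1094 normalized counts in GDF15 mouse 1, 746 in pair-fed mouse 3 and 481 in pair-fed mouse 6, against 33.1 to 112 in the other 13 libraries. Myl2, Tnnt1, Tnni1 and Tnnc1 were also highest in these 3, whereas Myl3 and Tpm3 of the same list were not, and Myl3 was lowest of all in pair-fed mouse 6 (124 normalized counts). The summed level of the list stood above all others in GDF15 mouse 1 (2956) and pair-fed mouse 3 (3415) but not in pair-fed mouse 6 (1837, against 974 to 1881 in the other 13). Values of Atp2a2, Pln and Casq2, and of Ryr3 for pair-fed against vehicle, are also given without these 3 libraries. In bulk muscle, fewer fibres of a type and less RNA per fibre cannot be told apart. Within a group the labels tell the mice apart only by number, so that effects of batch or cage could not be looked for. The p-values weigh a difference between groups against the spread between mice within groups.

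Of the 10 genes, none passed the test between GDF15-treated and pair-fed mice, none passed between GDF15-treated and vehicle-treated mice, and 2 passed between pair-fed and vehicle-treated mice, where Atp2a1 was higher and Casq2 lower in pair-fed mice. That count of 2 was 0 without vehicle mouse 5. It was 1 without vehicle mouse 1, 2 or 3 or pair-fed mouse 2 or 6, and also without the trend, with only the 2 groups, with the mouse number as a replicate block and with quantile normalization. A gene passed at a Benjamini-Hochberg adjusted p under 0.1 in limma. For GDF15 against pair-fed, 0 of 10 passed beside 2.17% of all tested genes, and 2 of 10 had an unadjusted p under 0.05 beside 13.2% of all. For GDF15 against vehicle, 0 of 10 passed beside 0.769% of all, and 1 of 10 had an unadjusted p under 0.05 beside 11% of all. For pair-fed against vehicle, 2 of 10 passed beside 6.37% of all, and 3 of 10 had an unadjusted p under 0.05 beside 18.9% of all. A share of 2 in 10 among so few genes was not read as a property of the set. When the log2 fold change also had to exceed 0.6 in either direction, Casq2 alone passed, in pair-fed against vehicle, where 0.819% of all genes did. This stricter rule was met by 0.279% of all genes for GDF15 against pair-fed and 0.304% for GDF15 against vehicle, and by none of the 10. The median log2 fold change of the 10 genes was −0.06 for GDF15 against pair-fed, 0.01 for GDF15 against vehicle and 0.07 for pair-fed against vehicle, and the median of all tested genes was 0.00 in each.

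**Figure D1:**
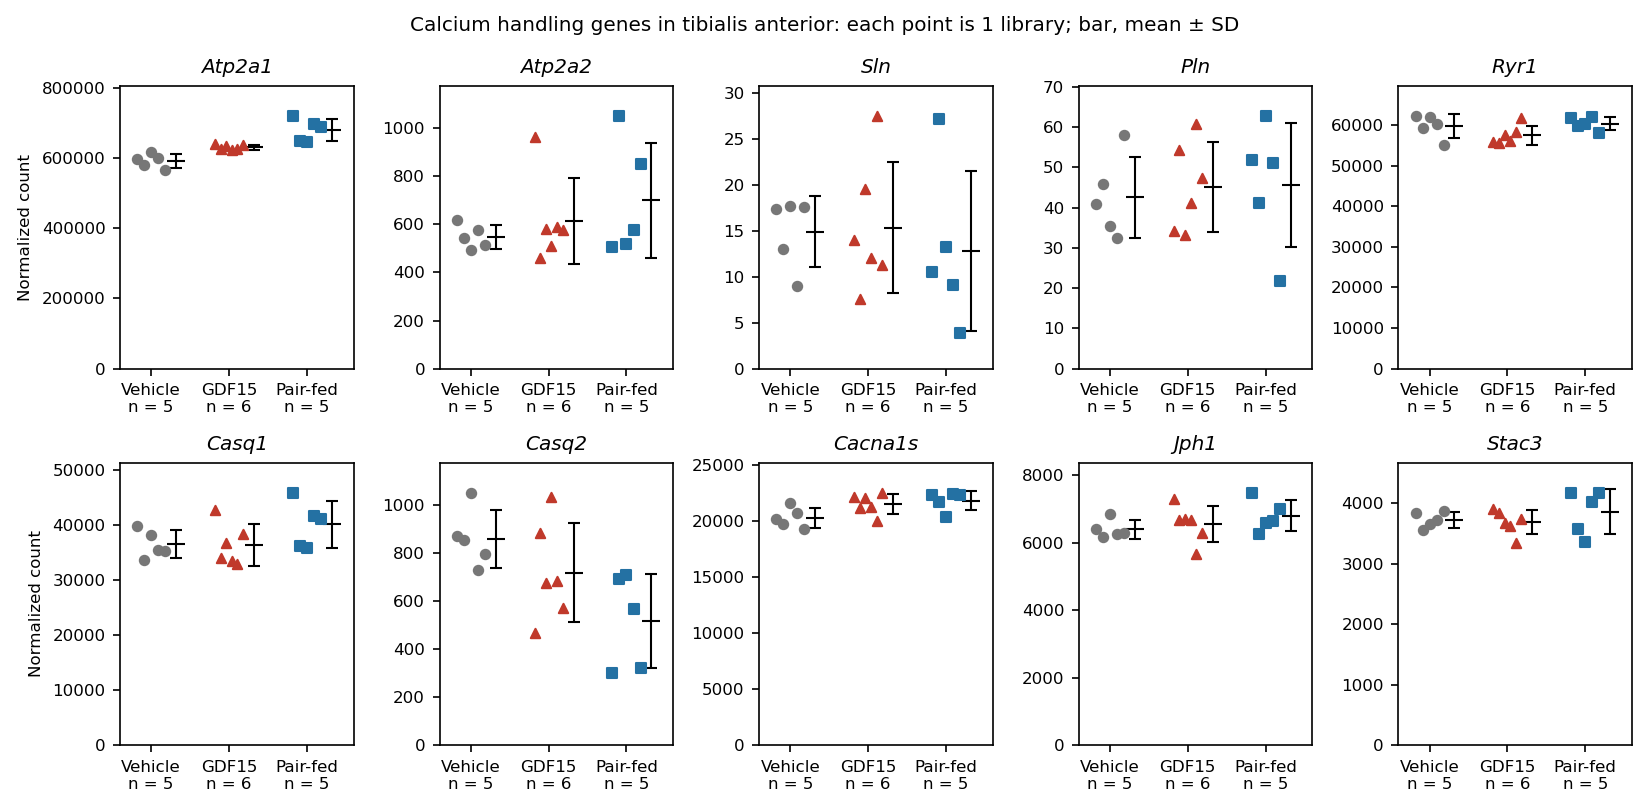
Normalized counts (vertical axis, from 0) of the 10 genes in each library of vehicle-treated (grey circles), GDF15-treated (red triangles) and pair-fed mice (blue squares), with the mean ± SD beside each group. The 3 groups of Atp2a1 form separate bands in the order vehicle, GDF15, pair-fed, and the pair-fed values of Casq2 lie below all vehicle values, while the groups of the other 8 genes overlap.

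Atp2a1, on the reverse strand of chr7:126445858-126463108 (mm10/GRCm38), encodes SERCA1, the pump of fast fibres. It was the second most abundant gene of the table in all 16 libraries and took 4.93% of all normalized counts. It had 595691, 580276, 616451, 598601 and 566293 normalized counts in vehicle mice 1 to 5. In GDF15-treated mice it ranged from 623689 through a median of 628701 to 640445. In pair-fed mice 2 to 6 it had 718748, 648120, 645171, 695881 and 688399. Every GDF15 value lay above every vehicle value and below every pair-fed value, so that none of the 3 groups overlapped. The gaps were narrow, from 616451 in vehicle to 623689 in GDF15 and from 640445 in GDF15 to 645171 in pair-fed mice. Overlap was looked at only with the depth scaling of the deposited values, and not under other scalings. The means were 591462 ± 19052 (SD, n = 5) in vehicle, 630653 ± 7627 (SD, n = 6) in GDF15 and 679264 ± 31823 (SD, n = 5) in pair-fed mice, which made pair-fed 14.8% higher than vehicle and GDF15 6.63% higher than vehicle. The log2 fold change was 0.20 ± 0.05 (SE, with a 95% confidence interval from 0.09 to 0.31) for pair-fed against vehicle, with an adjusted p of 0.0402 in limma. For GDF15 against vehicle it was 0.09 (−0.01 to 0.20, adjusted p = 0.506), and for GDF15 against pair-fed it was −0.11 (−0.21 to −0.00, adjusted p = 0.358). With only the 2 groups in the fit the adjusted p for pair-fed against vehicle was 0.102, and without vehicle mouse 5 it was 0.104, at a log2 fold change of 0.18. With the mouse number as a replicate block it was 0.116, at a log2 fold change of 0.20. Quantile normalization set the difference to 0 by construction.

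Complete separation of groups was uncommon among all genes. Values did not overlap, with GDF15 lower than pair-fed, in 1.06% of tested genes, and with GDF15 higher than vehicle in 0.785%. For pair-fed higher than vehicle the share was 2.79%. The opposite directions held 0.718% (GDF15 above pair-fed), 0.861% (GDF15 below vehicle) and 2.65% (pair-fed below vehicle) of tested genes. No overlap in any pair of groups was found in 5 of the 11841 tested genes, or 0.0422%, with the depth scaling of the deposited values. Those 5, singled out after their values were seen, were Atp2a1, Arntl, Clock, Per3 and Klf9, and the other 4 are genes of the circadian clock or its output. Per3, a repressor in the clock, went from 285 to 361 normalized counts in vehicle through 407 to 481 in GDF15 to 517 to 602 in pair-fed mice, in the same order as Atp2a1. Klf9, a transcription factor induced by glucocorticoids and by the clock, had that order too, with medians of 2659, 2995 and 3306. Arntl, which encodes the activator BMAL1, ran in the opposite order, with medians of 396 in vehicle, 253 in GDF15 and 181 in pair-fed mice, and so did its partner Clock with 348, 289 and 241. By Pearson's r on log2(normalized count + 1) over the 16 libraries, which include the group differences, the 3 genes most like Atp2a1 were Sar1b at 0.93, Cry2 at 0.93 and Pfkm at 0.93, and Cry2 is another repressor of the clock. Whether the hour at which the muscles were taken, or the hour of feeding, had a part in the order of Atp2a1 was not tested.

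Markers of other cells and of muscle fibres were summed for each library. The summed level of the 4 endothelial markers was 4591 to 5429 normalized counts in vehicle, 3809 to 4804 in GDF15 and 3971 to 4777 in pair-fed mice, with overlap and with none of the 4 at 0. Of the 4, Kdr fell in GDF15 (log2 fold change, −0.66, adjusted p = 0.00116) and in pair-fed mice (−0.50, adjusted p = 0.00473) against vehicle, while Pecam1, Cdh5 and Tie1 did not pass in any comparison. The sum of the 6 muscle fibre markers was 1048860 to 1092950 in vehicle, 1054910 to 1125320 in GDF15 and 1086170 to 1212190 in pair-fed mice. The 6 did not move as one in pair-fed against vehicle: Ckm, creatine kinase, rose (log2 fold change, 0.15, adjusted p = 0.0997), Mb, myoglobin, fell (−0.50, adjusted p = 0.0515), and the other 4 did not pass. Across the libraries r of Atp2a1 was 0.79 with the muscle fibre sum and −0.69 with the endothelial sum. Their part in the Atp2a1 difference was not tested. Rabep2, on the other strand, shares exon sequence with Atp2a1 and had 218 to 343 normalized counts over all libraries. The strand setting of the counting is not given in the sources used here, and what Rabep2 adds to the Atp2a1 values was not tested.

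**Figure D2:**
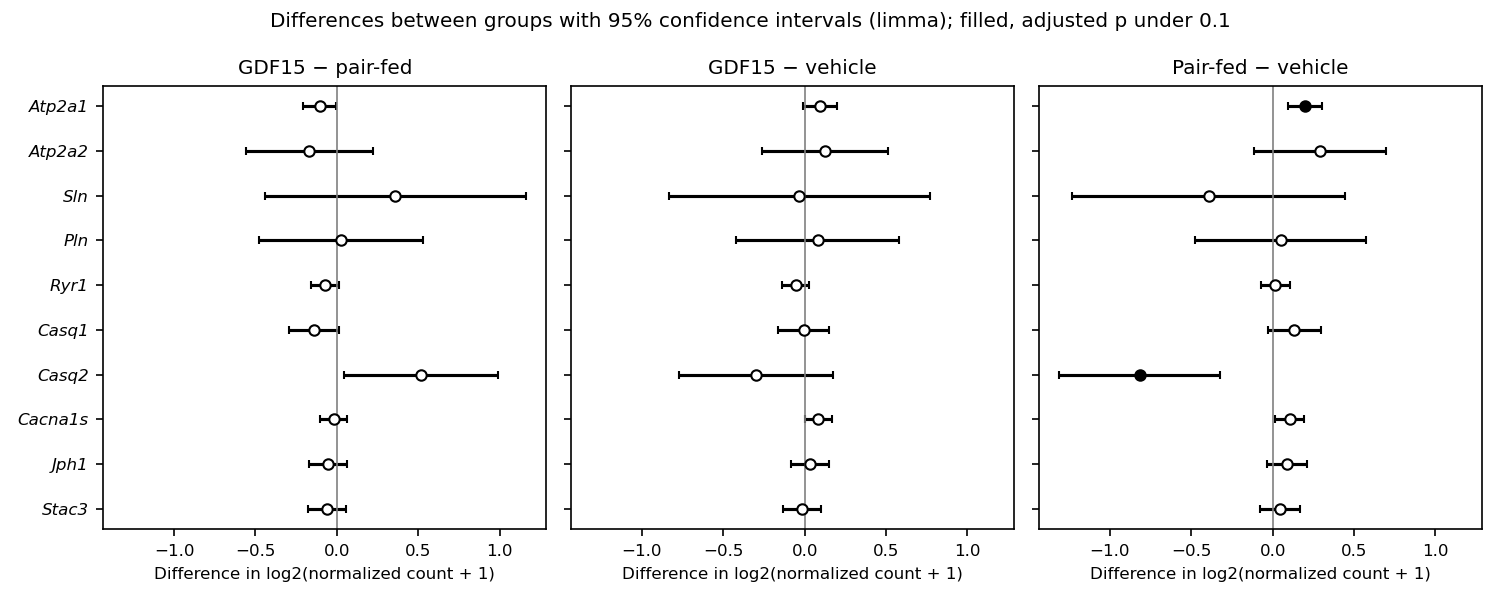
Differences in log2(normalized count + 1) between groups for each of the 10 genes (points) with 95% confidence intervals (bars), in 3 panels for GDF15 minus pair-fed, GDF15 minus vehicle and pair-fed minus vehicle. Filled points mark an adjusted p under 0.1 and are found only for Atp2a1 (0.20) and Casq2 (−0.82) in the panel of pair-fed minus vehicle; intervals are narrow for Atp2a1, Ryr1 and Cacna1s and widest for Sln.

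Atp2a2 (reverse strand of chr5:122453513-122502225) encodes SERCA2, whose main muscle form is the pump of slow fibres and heart. It was a small part of the pump RNA: per kilobase of transcript it made up 0.0719% ± 0.0068 (SD, n = 5) of Atp2a1 and Atp2a2 together in vehicle, 0.0752% ± 0.021 (SD, n = 6) in GDF15 and 0.0804% ± 0.0297 (SD, n = 5) in pair-fed mice. Atp2a2 had 620, 543, 493, 576 and 512 normalized counts in vehicle mice. In GDF15-treated mice it ranged from 461 through a median of 579 to 963. In pair-fed mice 2 to 6 it had 506, 1051, 517, 577 and 851. The 3 highest values were those of GDF15 mouse 1 and pair-fed mice 3 and 6, the same 3 libraries in which Myh7 was high, and the values of the other libraries overlapped between groups. No comparison passed: the log2 fold change was −0.17 (−0.56 to 0.22, adjusted p = 0.742) for GDF15 against pair-fed, 0.12 (adjusted p = 0.867) for GDF15 against vehicle and 0.29 (−0.11 to 0.70, adjusted p = 0.448) for pair-fed against vehicle. Without those 3 libraries the 3 differences were 0.02, −0.01 and −0.04. Because the libraries left out held the 3 highest Atp2a2 values and none was a vehicle library, lower GDF15 and pair-fed levels follow from the choice itself.

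The genes most like Atp2a2 over the 16 libraries were the slow-fibre genes Myh7 (r = 0.92), Tnnc1 (0.85) and Tnni1 (0.85). Tnnc1, slow troponin C, had 122 normalized counts in GDF15 mouse 1, 129 in pair-fed mouse 3 and 105 in pair-fed mouse 6, and its value in the other 13 libraries was 21.3 to 74.4. All 7 slow-fibre markers were present, and their sum was 1290 to 1831 in vehicle, 1173 to 2956 in GDF15 and 974 to 3415 in pair-fed mice. The spread of Atp2a2 within groups, an SD of 0.35 on the log2 scale, was larger than that of 98.4% of the 3311 genes within 2-fold of its level. Atp2a3, the third pump gene, is known mainly from non-muscle cells. It had 139 to 237 normalized counts over all libraries, and its largest log2 fold change was −0.12, for GDF15 against vehicle (adjusted p = 0.783).

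**Figure D3:**
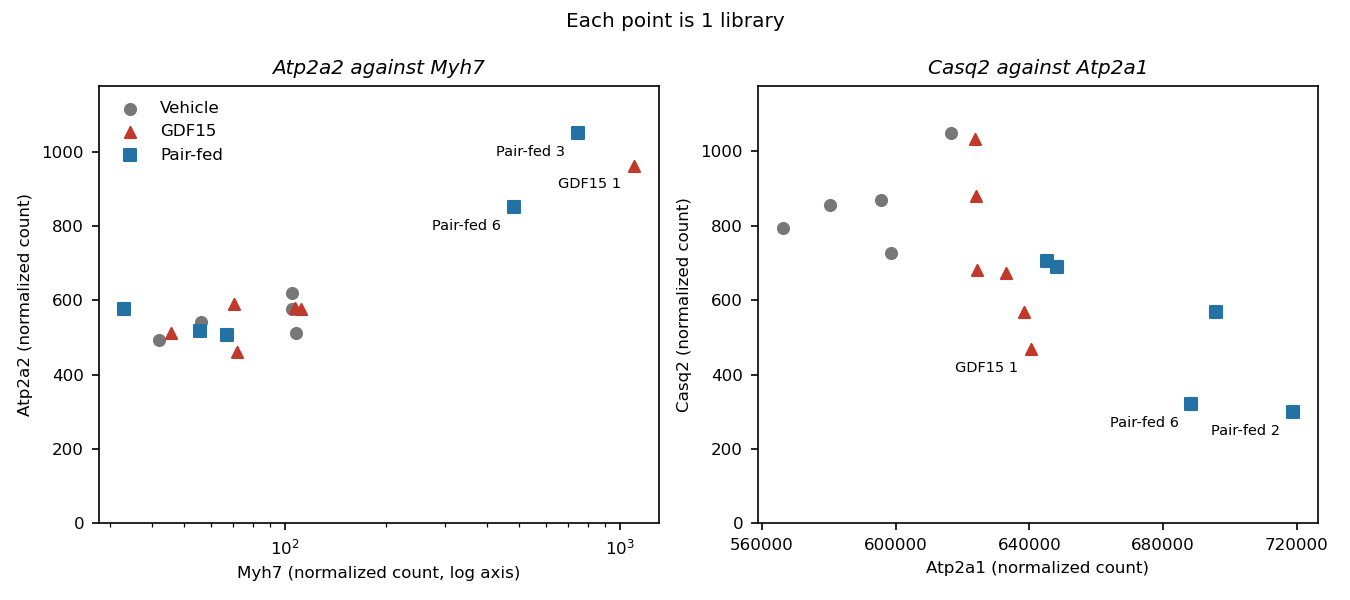
Left, normalized counts of Atp2a2 against those of the slow myosin gene Myh7 (log axis); right, those of Casq2 against those of Atp2a1; each point is 1 library and colours and shapes mark the groups. GDF15 mouse 1 and pair-fed mice 3 and 6 stand apart at the upper right of the left panel, and in the right panel pair-fed mice 2 and 6, with the lowest Casq2 (300.3 and 320), are among the 3 libraries of highest Atp2a1.

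Sarcolipin and phospholamban are encoded by short reading frames, and so is myoregulin, the regulin of adult fast muscle. The coding sequences of Sln, Pln and Mrln are shown because their RNA sets what can be said of pump regulation here, and each was read from the GRCm38 genome with the GENCODE vM21 annotation on the forward strand, in lower case with the start and stop codons in capitals. They have 31 codons (Sln, chr9:53853473-53853568), 52 codons (Pln, chr10:53343864-53344022) and 46 codons (Mrln, chr10:70219496-70219636) before the stop codon.
Sln: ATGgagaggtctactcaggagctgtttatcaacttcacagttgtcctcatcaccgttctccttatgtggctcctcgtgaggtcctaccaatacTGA
Pln: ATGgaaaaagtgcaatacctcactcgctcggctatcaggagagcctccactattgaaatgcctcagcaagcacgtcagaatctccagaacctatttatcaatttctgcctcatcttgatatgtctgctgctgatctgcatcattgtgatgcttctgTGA
Mrln: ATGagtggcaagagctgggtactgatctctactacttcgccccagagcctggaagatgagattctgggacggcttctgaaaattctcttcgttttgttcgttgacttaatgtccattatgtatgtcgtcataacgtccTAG

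Sln was near the limit of what these libraries could measure. It had 17.4, 13.01, 17.7, 9.03 and 17.6 normalized counts in vehicle mice 1 to 5. In GDF15-treated mice it ranged from 7.58 through a median of 13.02 to 27.5. In pair-fed mice 2 to 6 it had 10.5, 27.2, 13.3, 9.10 and 3.90. The pair-fed group held both the lowest value of all, in mouse 6, and one of the 2 highest, in mouse 3, and all groups overlapped. Because Sln has 1 annotated transcript its reads could be counted back: there were 4 to 30 per library and 233 in all, and 13 of 16 values fell within 0.1 of a whole read. The SD of the vehicle libraries, 3.84 normalized counts, was close to the 3.78 that counting error alone gives, while in GDF15 it was 7.14 against 4.08 and in pair-fed mice 8.73 against 3.47. The log2 fold change was 0.36 for GDF15 against pair-fed with a 95% confidence interval from −0.44 to 1.16 (adjusted p = 0.728). It was −0.03 (−0.84 to 0.77, adjusted p = 0.988) for GDF15 against vehicle and −0.39 (−1.23 to 0.44, adjusted p = 0.651) for pair-fed against vehicle. With 1 library left out the value ran from 0.04 to 0.67 for GDF15 against pair-fed, from −0.22 to 0.13 for GDF15 against vehicle and from −0.71 to −0.08 for pair-fed against vehicle. These libraries do not exclude a difference in Sln of any size inside the 95% confidence intervals.

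Pln had 41.0, 45.9, 35.3, 32.5 and 58.0 normalized counts in vehicle mice, 33.1 to 60.9 with a median of 44.2 in GDF15-treated mice, and 51.9, 41.2, 62.7, 51.0 and 21.8 in pair-fed mice 2 to 6. The lowest value was again that of pair-fed mouse 6, and the groups overlapped. Its log2 fold change was 0.03 (−0.47 to 0.53, adjusted p = 0.977) for GDF15 against pair-fed, 0.08 (adjusted p = 0.944) for GDF15 against vehicle and 0.05 (adjusted p = 0.941) for pair-fed against vehicle. Without the 3 libraries of high Myh7 the 3 values were −0.24 (adjusted p = 0.656), 0.15 (adjusted p = 0.855) and 0.39 (adjusted p = 0.377). Cep85l, transcribed from the other strand, shares exon sequence with Pln. It had 330 to 733 normalized counts in vehicle, 766 to 927 in GDF15 and 502 to 680 in pair-fed mice. As the strand setting is not known, reads of Cep85l may be among those of Pln, and this was not tested.

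Per kilobase of transcript, Mrln was the most abundant of the pump regulators measured, with 823 normalized counts per kilobase over all libraries, before 1810037I17Rik (another-regulin) with 156, Pln with 19.1 and Sln with 10.9. Mrln thus stood at 79.6 ± 27.8 (SD, n = 5) times the level of Sln in vehicle mice. Its own normalized count was 371 ± 16.3 (SD, n = 5) in vehicle, 354 ± 43.0 (SD, n = 6) in GDF15 and 371 ± 30.0 (SD, n = 5) in pair-fed mice, and its log2 fold change was −0.07 (−0.23 to 0.09, adjusted p = 0.729) for GDF15 against pair-fed. The gene 1810037I17Rik, looked at after its values were seen, had 180 to 217 normalized counts in GDF15-treated and 153 to 170 in vehicle mice without overlap, and its log2 fold change of 0.26 ± 0.07 (SE) did not pass (adjusted p = 0.132). Against pair-fed mice, with 163 to 195, it overlapped (0.14, adjusted p = 0.393). Strit1, the gene of the activating peptide DWORF, was not analysed here.

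**Figure D4:**
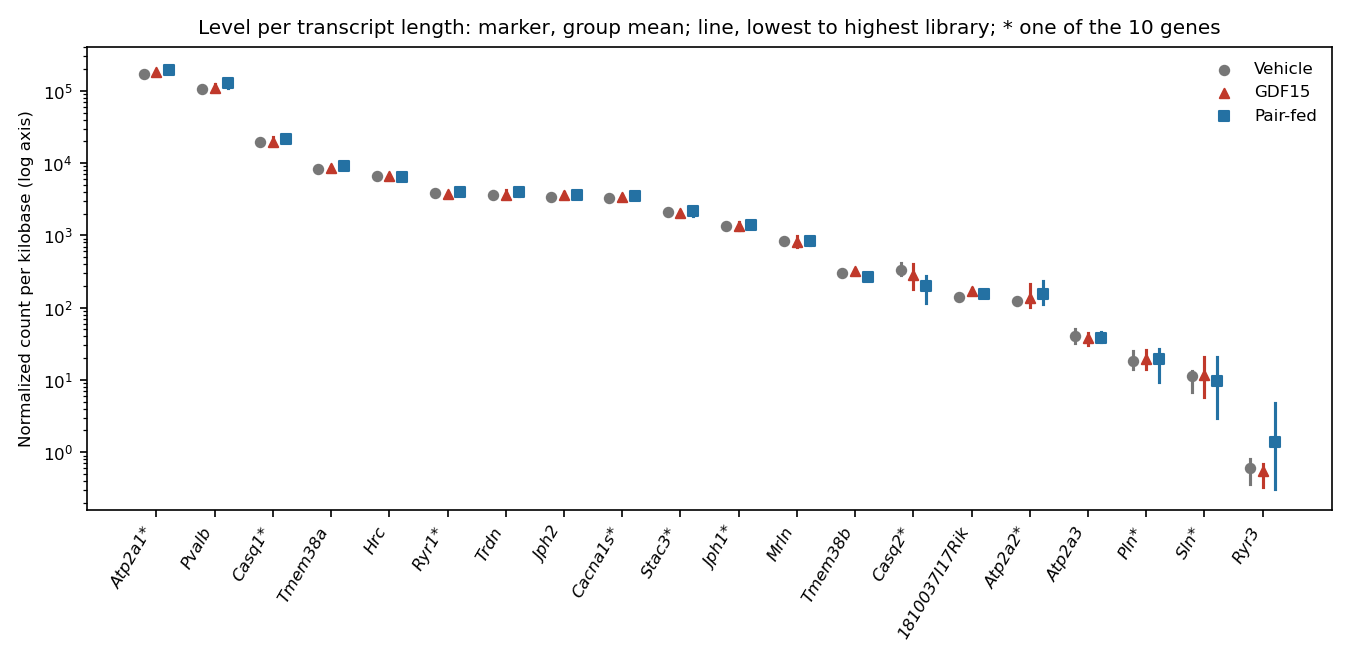
Normalized counts per kilobase of transcript (log axis) for the 10 genes (asterisks) and other genes of the pathway, ordered by their mean; markers are group means and lines run from the lowest to the highest library of each group. Atp2a1 and the buffer gene Pvalb stand at the top, the junction and storage genes form the middle, and Pln, Sln and Ryr3 stand at the bottom.

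Cacna1s (forward strand of chr1:136052750-136119822) encodes the pore subunit of the L-type calcium channel that senses voltage in the T-tubule. It had 20191, 19773, 21597, 20714 and 19286 normalized counts in vehicle mice, 20019 to 22532 with a median of 21661 in GDF15-treated mice, and 22288, 21685, 20377, 22413 and 22366 in pair-fed mice 2 to 6. All groups overlapped, though 4 of 5 pair-fed values lay above all vehicle values. The log2 fold change was 0.10 (0.02 to 0.19) for pair-fed against vehicle, which did not pass after adjustment (adjusted p = 0.188), 0.08 (0.00 to 0.17, adjusted p = 0.445) for GDF15 against vehicle and −0.02 (adjusted p = 0.878) for GDF15 against pair-fed. Stac3, an adaptor that brings this channel to the triad, had group means of 3728 ± 130 (SD, n = 5), 3692 ± 196 (SD, n = 6) and 3861 ± 373 (SD, n = 5), and its log2 fold changes ran from −0.06 to 0.05 (adjusted p from 0.682 to 0.958).

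Jph1, which tethers the T-tubule to the reticulum, had group means of 6388 ± 270 (SD, n = 5) in vehicle, 6551 ± 536 (SD, n = 6) in GDF15 and 6791 ± 463 (SD, n = 5) in pair-fed mice. Its log2 fold changes were 0.09 for pair-fed against vehicle (adjusted p = 0.457), 0.03 for GDF15 against vehicle (adjusted p = 0.885) and −0.05 for GDF15 against pair-fed (adjusted p = 0.726). Ryr1, the release channel, had 55087 to 62185 normalized counts in vehicle, 55516 to 61683 in GDF15 and 57953 to 62056 in pair-fed mice, with medians of 60226, 56860 and 60325. In 4 of 6 GDF15-treated mice Ryr1 lay below all pair-fed values, yet the groups overlapped and the log2 fold change of −0.07 for GDF15 against pair-fed did not pass (adjusted p = 0.472). It was −0.06 for GDF15 against vehicle (adjusted p = 0.666) and 0.01 for pair-fed against vehicle (adjusted p = 0.895). The genes most like Ryr1 over the libraries were Mylk4 (r = 0.82), Zbtb44 (0.81) and Ltbp3 (0.80).

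Per kilobase, the ratio of Atp2a1 to Ryr1 was 43.7 ± 1.14 (SD, n = 5) in vehicle mice, 48.5 ± 1.75 (SD, n = 6) in GDF15-treated mice and 49.7 ± 2.24 (SD, n = 5) in pair-fed mice. The vehicle ratios, 42.3 to 45.4, lay below all GDF15 ratios, 45.7 to 50.6, and below all pair-fed ratios, 47.2 to 52.5, while GDF15 and pair-fed ratios overlapped. The ratio was looked at as a description and has no test.

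Casq1, the calsequestrin of fast fibres, had 33583 to 39864 normalized counts in vehicle, 32868 to 42733 in GDF15 and 35775 to 45830 in pair-fed mice, with means of 36463 ± 2515 (SD, n = 5), 36374 ± 3770 (SD, n = 6) and 40071 ± 4185 (SD, n = 5). The groups overlapped and no comparison passed, with log2 fold changes of 0.13 for pair-fed against vehicle (adjusted p = 0.377), −0.01 for GDF15 against vehicle (adjusted p = 0.988) and −0.14 (−0.29 to 0.02, adjusted p = 0.437) for GDF15 against pair-fed. Its level followed the summed fast-fibre markers across the 16 libraries (r = 0.89), whose sum was 1270900 to 1517690 in vehicle, 1290290 to 1470410 in GDF15 and 1381940 to 1605900 in pair-fed mice. Members of that list went in opposite directions in pair-fed against vehicle: Actn3 rose (0.33, adjusted p = 0.0167), Myh1 fell (−0.68, adjusted p = 0.0123), and the other 5 did not pass, among them Myh4 with 0.18 (adjusted p = 0.272) and Myh2 with −0.61 (adjusted p = 0.216).

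Casq2 (forward strand of chr3:102086415-102146514), the calsequestrin of slow fibres and heart, had the largest log2 fold change of the 10 genes. It had 868, 855, 1050, 727 and 795 normalized counts in vehicle mice 1 to 5. In GDF15-treated mice it ranged from 468 through a median of 678 to 1032. In pair-fed mice 2 to 6 it had 300.3, 689, 706, 568 and 320. All 5 pair-fed values lay below all 5 vehicle values and the GDF15 values overlapped both groups. The means were 859 ± 121 (SD, n = 5) in vehicle, 718 ± 206 (SD, n = 6) in GDF15 and 517 ± 196 (SD, n = 5) in pair-fed mice, the last being 0.601 of vehicle. The log2 fold change for pair-fed against vehicle was −0.82 ± 0.24 (SE, −1.31 to −0.32, adjusted p = 0.0643 in limma). For GDF15 against vehicle it was −0.30 (−0.77 to 0.18, adjusted p = 0.685) and for GDF15 against pair-fed 0.52 (0.04 to 0.99, adjusted p = 0.325). Per kilobase, Casq2 was 1.67% ± 0.2 (SD, n = 5) of the 2 calsequestrins together in vehicle, 1.44% ± 0.51 (SD, n = 6) in GDF15 and 0.955% ± 0.435 (SD, n = 5) in pair-fed mice.

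The call for Casq2 depended on single libraries and on the fit. It was lost without the trend (adjusted p = 0.116 at the same log2 fold change), without vehicle mouse 1 (adjusted p = 0.112), 2 (0.114), 3 (0.137) or 5 (0.108) and without pair-fed mouse 2 (0.162) or 6 (0.158), and with each library left out the log2 fold change stayed at or below −0.64. Without the 3 libraries of high Myh7 it was −0.79 (adjusted p = 0.0815), and the values for GDF15 were −0.18 against vehicle (adjusted p = 0.820) and 0.60 against pair-fed (adjusted p = 0.232). The SD of Casq2 within groups was 0.43 on the log2 scale, larger than that of 99.3% of the 3104 genes within 2-fold of its level. The genes most like it over the libraries were Hspd1 (r = 0.92), Plbd1 (0.92) and St3gal5 (0.91). Its r with Atp2a1 was −0.76, or −0.55 after the group means were taken out. With the summed markers it was −0.67 for muscle fibres, 0.60 for endothelium, −0.54 for fast fibres, 0.53 for smooth muscle and for satellite cells, and 0.14 for slow fibres. In the muscle and fast-fibre lists, Myh1, the myosin of type IIX fibres, fell in pair-fed against vehicle (log2 fold change, −0.68, adjusted p = 0.0123), as did myoglobin (Mb, −0.50, adjusted p = 0.0515), while Ckm and Actn3 rose. None of the 7 slow-fibre markers passed. Of the 5 smooth muscle markers, Smtn (−0.20, adjusted p = 0.0448) and Cnn1 (−1.47, adjusted p = 0.0523) fell in pair-fed against vehicle and the other 3 did not pass. Smtn was also higher in GDF15 than in pair-fed mice (0.25, adjusted p = 0.0340). Their part in the Casq2 difference was not tested.

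Promoters were at hand for 6 of the 10 genes in RefSeq sequences of GRCm38.p6, 250 bases before the start site. Those of the 2 genes that passed are shown, on the strand of the gene, with a match in capitals: the muscle E-box CAGCTG in Atp2a1 (chr7:126463074-126463323, reverse strand) and a MEF2 match in Casq2 (chr3:102086165-102086414, forward strand).
Atp2a1: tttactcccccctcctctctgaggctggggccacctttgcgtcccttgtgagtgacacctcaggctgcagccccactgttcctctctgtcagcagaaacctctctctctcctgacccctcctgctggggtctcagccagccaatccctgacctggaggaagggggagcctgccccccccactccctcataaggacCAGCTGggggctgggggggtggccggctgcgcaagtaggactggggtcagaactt
Casq2: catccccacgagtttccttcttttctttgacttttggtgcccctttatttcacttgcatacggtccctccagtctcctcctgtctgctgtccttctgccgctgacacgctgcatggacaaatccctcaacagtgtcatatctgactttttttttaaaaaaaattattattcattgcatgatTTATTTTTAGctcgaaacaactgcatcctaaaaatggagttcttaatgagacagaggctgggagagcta
The E-box of Atp2a1 starts at −55 from the start site, and Casq1 (−195) and Cacna1s (−123) held one too, while Casq2, Ryr1 and Pln held none in this window. Of 27025 promoters of this length, 12.8% held CAGCTG and 3.01% a MEF2 match, which among the 6 was in Casq2 only, starting at −69. The cyclic AMP response element TGACGTCA (1.62% of promoters) and the shorter TGACG it contains (17.9%) were searched on both strands and were in none of the 6 windows. A match of letters is a description and not a site.

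Other genes of the pathway were taken from a list of 68 tested genes, ordered by role. For GDF15 against pair-fed, 2 rose and 1 fell, or 4.41% of the list beside 2.17% of all tested genes. For GDF15 against vehicle, 0 rose and 1 fell, or 1.47% beside 0.769% of all. For pair-fed against vehicle, 5 rose and 7 fell, or 17.6% beside 6.37% of all, where 3.2% of all genes rose and 3.17% fell. The median log2 fold change of the list was −0.01, −0.00 and −0.01. None of the 68 met the stricter rule. The count for pair-fed against vehicle was 5 without vehicle mouse 2 (7.35% of the list beside 4.02% of all genes), 4 without vehicle mouse 5 (5.88% beside 3.88%), 5 without pair-fed mouse 2 (7.35% beside 3.88%), 4 without pair-fed mouse 5 (5.88% beside 3.43%) and 7 without pair-fed mouse 6 (10.3% beside 3.45%). Fewer genes were called both in the list and among all genes in each of these fits, and also without the trend (7, or 10.3% beside 4.82%). More were called without pair-fed mouse 3, where the count was 16 (23.5% beside 8.85%).

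Among genes of the junctional reticulum, Tmem38b, which encodes the cation channel TRIC-B, had 878, 846, 843, 839 and 847 normalized counts in vehicle and 796, 794, 759, 746 and 728 in pair-fed mice, and 826 to 979 in GDF15-treated mice. All GDF15 values lay above all pair-fed values (log2 fold change, 0.26, adjusted p = 0.0140), and it fell in pair-fed against vehicle (−0.15, adjusted p = 0.0950). Its more abundant relative Tmem38a (TRIC-A) rose in pair-fed against vehicle (0.14, adjusted p = 0.0523). Speg, a striated muscle kinase found at the triad, fell in both, from 7459 to 8843 normalized counts in vehicle to 6449 to 7579 in GDF15 (−0.23, adjusted p = 0.0518) and 6494 to 6747 in pair-fed mice (−0.28, adjusted p = 0.00793). The GDF15 against vehicle call of Speg was lost without the trend (adjusted p = 0.141), where Atp2b3, a plasma membrane calcium pump, passed in its place (−0.21, adjusted p = 0.0962, against 0.177 with the trend). It was also lost with only the 2 groups (0.109), with the mouse number as a replicate block (0.131), with quantile normalization (0.114) and without the 3 libraries of high Myh7 (0.129). The same held without vehicle mouse 1 (0.130), 3 (0.125) or 4 (0.101) or GDF15 mouse 2 (0.119) or 4 (0.109). Homer2, a scaffold protein, fell in pair-fed against vehicle (−0.47, adjusted p = 0.0892). Trdn (triadin) and Hrc, a calcium-binding protein of the lumen, passed in none, with log2 fold changes for pair-fed against vehicle of 0.10 (adjusted p = 0.516) and −0.04 (adjusted p = 0.480). Ryr3, a minor release channel, had 4.80 to 12.5 normalized counts in 15 libraries and 74.9 in pair-fed mouse 3, and passed in none (0.42 for pair-fed against vehicle, adjusted p = 0.707). Without that library its log2 fold change was −0.20 (adjusted p = 0.782), and without the 3 libraries of high Myh7 it was −0.30 (adjusted p = 0.717).

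At the triad membrane, Cacng1, the gamma subunit of the voltage sensor, rose in pair-fed against vehicle (0.28, adjusted p = 0.0347), from 2819 to 3114 normalized counts to 3294 to 4058. Cav3, the muscle caveolin, was higher in GDF15 than in pair-fed mice (0.25, adjusted p = 0.0518), at 423 to 493 against 373 to 421. Jph2, the partner of Jph1, passed in none (0.09 for pair-fed against vehicle, adjusted p = 0.391).

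Among the list genes that passed, the largest difference was in Slc8a3, which encodes the sodium-calcium exchanger NCX3 that extrudes calcium from the fibre. It had 1343, 1334, 1240, 1381 and 1111 normalized counts in vehicle mice, 1255 to 1458 in GDF15-treated mice, and 1905, 1608, 1781, 2167 and 2111 in pair-fed mice. Pair-fed values lay above all others, so that it rose in pair-fed against vehicle (0.57 ± 0.08, SE, adjusted p = 0.00101) and was lower in GDF15 than in pair-fed mice (−0.49 ± 0.08, SE, adjusted p = 0.00718), while GDF15 and vehicle overlapped (0.09, adjusted p = 0.744). Pvalb, parvalbumin, the calcium buffer of fast fibres, rose in pair-fed against vehicle (0.27, adjusted p = 0.0538), from 102644 ± 4711 (SD, n = 5) to 124157 ± 14785 (SD, n = 5) normalized counts. The calcium pump of the surface membrane Atp2b3 (−0.29, adjusted p = 0.0178) and the chaperone Canx, calnexin (−0.23, adjusted p = 0.0472), fell in the same comparison.

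Of the calcium-dependent signalling genes, pair-feeding against vehicle gave a rise in Ppp3ca, a catalytic subunit gene of calcineurin (0.18, adjusted p = 0.0651). Falls were found in the calcineurin regulator Rcan2 (−0.37, adjusted p = 0.0553) and in the kinase gene Camk2d (−0.35, adjusted p = 0.0495). The other catalytic subunit genes Ppp3cb (0.11, adjusted p = 0.272) and Ppp3cc (−0.01, adjusted p = 0.945) did not pass. Nor did the kinase genes Camk2a (0.15, adjusted p = 0.156), Camk2b (0.07, adjusted p = 0.566) and Camk2g (0.07, adjusted p = 0.432). Ppp3ca, Rcan2 and Camk2d did not pass with GDF15 against either group. None of the 7 tested genes of mitochondrial calcium uptake and export, and none of the 3 other pump genes and regulators of the list, passed in any comparison.

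**Figure D5:**
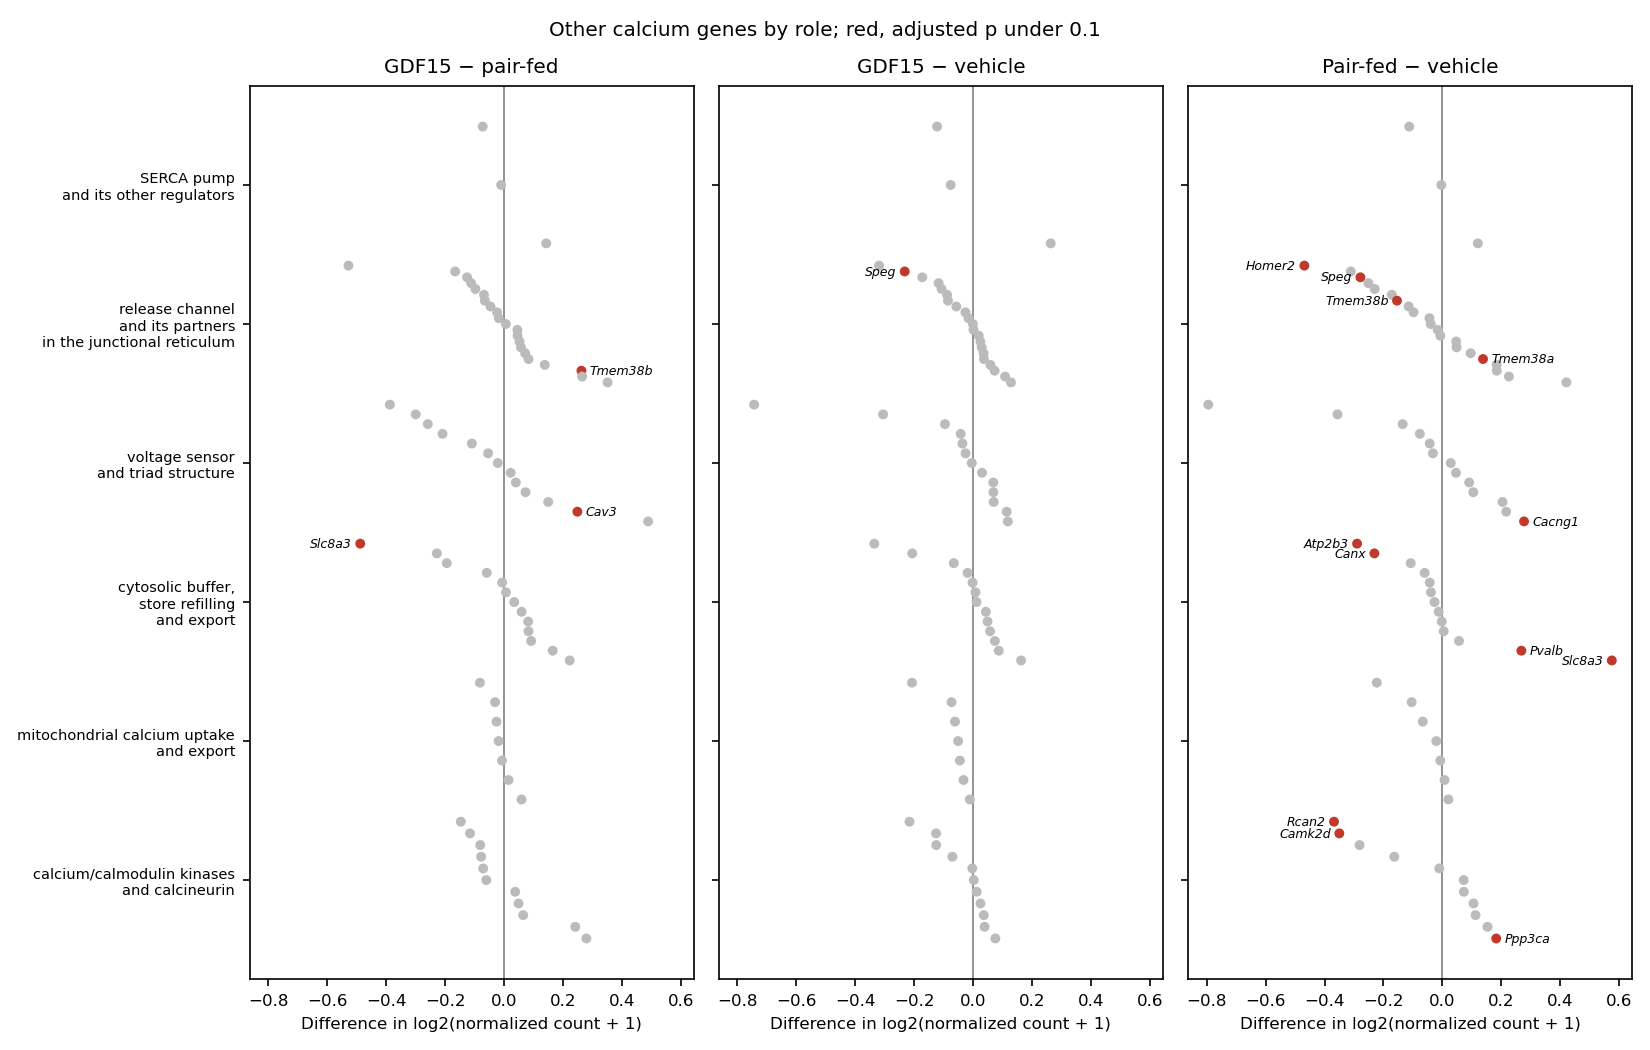
Differences in log2(normalized count + 1) (horizontal axis) of the 68 other calcium genes, in rows by role and in 3 panels for GDF15 minus pair-fed, GDF15 minus vehicle and pair-fed minus vehicle. Red, labelled points passed at an adjusted p under 0.1: 3, 1 and 12 genes, with Slc8a3 lowest in the first panel among these (−0.49) and highest in the last (0.57).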

How the data were processed

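RNA-seq of 16 tibialis anterior libraries was analysed (5 vehicle, 6 GDF15, 5 pair-fed), grouped by their labels. Trim Galore, Salmon (mm10) and DESeq2 were run by the authors, per the labels and methods. Versions, annotation and strand setting are not given in the sources used here. The authors deposited log2 values of the variance stabilizing transformation of DESeq2 (7.32 to 19.96; 8459 values at the lowest, a count of 0), which were transformed back to normalized counts. The design had been written for normalized counts. In genes with 1 transcript, 88.7% to 96.4% of low values per library were whole multiples, within 0.1, of 1 step, the value of 1 read; genes with many transcripts were not, so count tests were not run. Intervals of reads cover counting error only.

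A minimum mean of 10 normalized counts was set, and tests used log2(normalized count + 1), the scale of all fold changes, with limma 3.58.1 (trend, all 3 groups, no covariate; R 4.3.3; Python 3.11.15), two-sided, with Benjamini-Hochberg adjustment over 11841 genes and a threshold of 0.1. Fold changes understate those of low genes. The fit was also run on simulated counts with planted changes larger than most differences described here. That run does not show how well differences of the present size would be found. The 10 genes, the list of 68 and the markers were chosen with earlier results of these data known. Named were the 10 genes, list genes that passed anywhere, Mrln, Strit1, Trdn, Hrc, Pvalb, Ryr3, Jph2 and the 3 genes most correlated with each of Atp2a1, Atp2a2, Casq2 and Ryr1; 1810037I17Rik, Atp2a3 and the clock genes were added after their values were seen. Levels between genes were compared per kilobase of the longest coding GENCODE vM21 transcript. Same-numbered mice of different groups did not deviate together (r from −0.0994 to 0.0665), so numbers were not used as pairs. Alternatives were other pseudocounts, minimum counts, scalings, weights and fits, and each library left out.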

Additional observations from a re-analysis of the deposited data

Results flagged for a closer look

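Atp2a2 in GDF15 mouse 1, with 963 normalized counts, lay far above the other 5 GDF15-treated mice: on the log2 scale its gap to the next was 0.666 of the range of the group, where Dixon's limit for 6 samples is 0.625. Chance alone singles out about 1 in 20 groups, and this was 1 of 30 groups of the 10 genes looked at. The same library had the highest Myh7, 1094 normalized counts. Without it the log2 fold change of Atp2a2 for GDF15 against vehicle was −0.01.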

How the results depend on the processing

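Of 864 recomputed fold changes of the 10 genes, 819 kept direction and side of the threshold, 34 changed sign (none had passed) and 11 lost the call. A fold change of 0 was not counted as a changed sign. In some settings, such as leaving out a library of the group not compared, the fold change could not differ. The count of 819 is therefore not a measure of how stable the results are. No setting gave any of the 10 a call for GDF15 against pair-fed or vehicle. For pair-fed against vehicle the count of 2 was 1 without the trend (Casq2 lost), with only the 2 groups (Atp2a1 lost), with the mouse number as a replicate block (where Atp2a1 was 0.20, adjusted p = 0.116) and with quantile normalization (Atp2a1 lost in both), and 0 to 2 with 1 library left out (0 without vehicle mouse 5). Quantile normalization sets Atp2a1, second in every library, to a difference of 0 by construction. The block changed no other call of the 10. Leaving out the 3 libraries of high Myh7, chosen after seeing the data, kept the count at 2.

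For the list of 68, the count for pair-fed against vehicle was 7 without the trend and 4 to 16 with 1 library left out. For GDF15 against vehicle it was 1 without the trend (Atp2b3 in place of Speg), 0 with only the 2 groups, the block, quantile normalization or without the 3 libraries, and 0 to 1 with 1 left out (0 without vehicle mouse 1, 3 or 4 or GDF15 mouse 2 or 4). For GDF15 against pair-fed it was 5 without the 3 libraries and 2 to 4 with 1 left out.

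Atp2a2 (−0.17, 0.12 and 0.29 in all libraries) became 0.0245, −0.0148 and −0.0393 (GDF15 against pair-fed, GDF15 against vehicle, pair-fed against vehicle) without the 3 libraries and −0.0148 to 0.197 (GDF15 against vehicle) with 1 left out. Pln for GDF15 against pair-fed was −0.0107 with quality weights, −0.00359 with quantile normalization, −0.242 without the 3 libraries and −0.210 to 0.160 with 1 left out. With 1 left out it was −0.0131 to 0.195 for GDF15 against vehicle and −0.0814 to 0.289 for pair-fed against vehicle. For GDF15 against vehicle, Sln was 0.127 with the block and −0.216 to 0.130 with 1 left out, Casq1 0.0462 with quantile normalization and −0.0548 to 0.0258, and Stac3 −0.0322 to 0.0125. Cacna1s for GDF15 against pair-fed was 0.0395 with quantile normalization and −0.0437 to 0.00179 with 1 left out, and Ryr1 for pair-fed against vehicle −0.0143 to 0.0296. The causes were not tested. Sln had as few as 4 reads in a library.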
